A study of Mus musculus with 6 samples.

Results

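The NF-κB transcription factor subunits and the proteins that hold them in check were examined at the transcript level in induced T (iT) cells. The set was given by name and holds 10 genes of the 23420 rows of the expression table. It contains the 5 subunit genes Rela, Relb, Rel, Nfkb1 and Nfkb2, the 4 inhibitor genes Nfkbia, Nfkbib, Nfkbid and Nfkbie, and Tnfaip3. In sums, shares and figures Tnfaip3 is counted with the inhibitor genes, which are then 5. All 10 genes were found in the table and all 10 passed the filter on low values, which left 10476 genes for testing. The data were 6 libraries, 3 of CD4 single-positive (CD4SP) and 3 of CD8 single-positive (CD8SP) iT cells, each from an aliquot of 1000 cells sorted from spleen. In both groups the donor cells were progenitors grown from C57BL/6 pluripotent stem cells with a doxycycline-inducible Runx1-p2a-Hoxa9 cassette at the Rosa26 locus, and doxycycline was given in culture. In both groups the hosts were irradiated adult B-NDG mice, which carry the Prkdc scid mutation and lack Il2rg on a NOD background. The sort kept donor cells by CD45.2, removed cells with lineage markers, Ter119 and CD11b among them, and took CD4+ or CD8+ cells, so each population can hold naive, memory and regulatory T cells. The study describes each library as a biological replicate. Neither that description nor the labels say whether the libraries came from separate mice, and p-values then measure only the spread between these libraries.

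NF-κB dimers wait in the cytoplasm bound to IκB proteins. Signals from the T cell receptor or from TNF receptors activate IκB kinases, the IκB proteins are degraded, and the dimers enter the nucleus. Rela, Rel and Relb encode subunits with activation domains, whereas Nfkb1 and Nfkb2 encode precursors that are processed to the DNA-binding partners p50 and p52 and can themselves act as inhibitors. Nfkbia, which encodes IκBα, and Tnfaip3, which encodes the ubiquitin-editing enzyme A20, are textbook targets of the factor they restrain, and so form negative feedback loops.

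The sequence around the gene starts was read first. RefSeq promoter windows (GRCm38.p6, the assembly of mm10), from 250 bases before to 50 bases after each listed start, were given for 8 of the 10 genes, the exceptions being Nfkb1 and Relb. A match to the 10-base κB consensus, searched on both strands, lay in a window of 6 of these 8 genes, which were Nfkbia, Nfkbid, Nfkbie, Nfkb2, Rel and Tnfaip3. Among all 32851 windows of the same length, 4.51% held a match, and 5.14% of the 27025 genes had at least 1 such window. No match was found in the windows of Rela and Nfkbib. A match describes the letters only, and matches on opposite strands of Rel and Nfkb2 overlap each other. At least 1 match of each of the 6 genes is shown with 10 flanking bases on each side, 5′ to 3′ on the gene's strand, because κB sites are the elements that NF-κB dimers bind. Capitals mark the match.
Nfkbia, chr12:55492667-55492676: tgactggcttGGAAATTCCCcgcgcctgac
Tnfaip3, chr10:19015413-19015422: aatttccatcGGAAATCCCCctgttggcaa
Rel, chr11:23771052-23771061: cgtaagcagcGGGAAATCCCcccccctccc
Nfkb2 (the first listed start), chr19:46304698-46304707: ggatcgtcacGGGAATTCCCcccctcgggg
Nfkb2 (the third listed start), chr19:46305705-46305714: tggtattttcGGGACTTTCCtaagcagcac
Nfkbid (the second listed start), chr7:30422225-30422234: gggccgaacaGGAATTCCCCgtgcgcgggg
Nfkbie, chr17:45555594-45555603: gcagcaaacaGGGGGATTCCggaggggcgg

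Counted from the start, the match in Nfkbia spanned bases -29 to -20 and that shown for Tnfaip3 spanned bases -12 to -3. It spanned bases -92 to -83 in Rel, -106 to -97 in Nfkbie and -181 to -172 before the second listed start of Nfkbid. Nfkb2 held more matches than any other of the 8 genes. It and Nfkbid had 3 windows each, more than the other genes, so more sequence was searched. The Nfkb2 match at 46305705 lay in both windows 2 and 3. Nfkbia had the largest called difference between populations of the 10 genes, so the 250 bases before its start (chromosome 12, 55492648 to 55492897, minus strand) are given whole, with the consensus match in capitals.
Nfkbia: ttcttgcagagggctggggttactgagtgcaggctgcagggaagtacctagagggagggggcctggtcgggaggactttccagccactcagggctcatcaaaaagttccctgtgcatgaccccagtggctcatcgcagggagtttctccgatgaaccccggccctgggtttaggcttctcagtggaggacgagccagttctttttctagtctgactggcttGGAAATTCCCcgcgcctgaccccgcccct

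The labels of the libraries were then checked. Cd4 was at 279 to 331 TPM in CD4SP and 0 to 0.104 TPM in CD8SP libraries, and Cd8a was at 0.319 to 2.93 and 1038 to 1161 TPM, respectively. The 6 T cell markers summed to 5518 to 5583 TPM in CD4SP and 4753 to 5376 TPM in CD8SP libraries. Among B cell genes, Cd79b ranged from 10.9 to 21.6 TPM and Cd79a from 1.52 to 3.56 TPM over the 6 libraries, with Pax5 and Ms4a1 at 0 in each. Myeloid markers summed to 17.1 to 34.2 and 5.28 to 13.9 TPM, with S100a8 and S100a9 at 0. Most of the myeloid sum was Lyz2, a lysozyme gene at 17.1 to 30.9 TPM in CD4SP and 3.64 to 8.33 TPM in CD8SP libraries, which was called higher in CD4SP (log2 fold change 1.68) and is 95.8% identical to Lyz1 over 1264 nt. Its part in the differences of the 10 genes was not tested. NK markers summed to 4.45 to 10.6 and 44.7 to 52.1 TPM, with Ncr1 and Klra8 at 0, and both of those tested, Klre1 (log2 fold change -2.66) and Klrb1c (-1.86), were called higher in CD8SP. Erythroid and platelet markers summed to at most 0.129 TPM. Markers of dendritic cells and MHC class II summed to 84.9 to 124 and 40.6 to 52.3 TPM, and their members went in both directions. H2-Aa, H2-Ab1 and H2-Eb1 were called higher in CD4SP, whereas Itgax, at 0 to 0.946 TPM in CD4SP and 17.2 to 18.1 TPM in CD8SP libraries, was called higher in CD8SP. In such bulk samples, fewer cells that make a transcript and less of it per cell cannot be told apart. Ribosomal protein transcripts took 24.1% to 28.7% of TPM in CD4SP and 32.1% to 35.9% in CD8SP libraries. The median log2 fold change (CD4SP over CD8SP, on the log2(TPM + 1) scale) of all tested genes was 0.28. It was 0.14 with ribosomal protein genes removed and 0.00017 after median-of-ratios rescaling. Relative to the median of all genes, the log2 fold changes of the 10 genes were 1.19 for Nfkbia, 1.09 for Nfkb1, 0.72 for Nfkbid, 0.47 for Relb, 0.35 for Nfkb2, 0.20 for Nfkbie, 0.092 for Rel, -0.084 for Nfkbib, -0.12 for Rela and -1.73 for Tnfaip3.

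Of the 10 genes, Nfkb1, Nfkbia and Nfkbid were called higher in CD4SP iT cells and none was called higher in CD8SP iT cells. A call required a limma adjusted p under 0.05 over all tested genes and a difference over 2-fold. Among all tested genes, 7.92% were called higher in CD4SP, 1.80% higher in CD8SP and 9.73% in either direction. All 3 CD4SP libraries lay above all 3 CD8SP libraries for 6 of the 10 genes (Nfkb1, Nfkb2, Relb, Nfkbia, Nfkbid and Nfkbie), against 36.6% of all tested genes. For none did CD8SP libraries lie above, against 6.61% of all tested genes. An adjusted p under 0.05 alone was reached by 5 of the 10 genes, all higher in CD4SP, against 20.8% of all tested genes in either direction and 17.6% higher in CD4SP. The median log2 fold change of the 10 genes was 0.56, beside the 0.28 of all tested genes. Before rescaling 9 of the 10 had a positive log2 fold change, and after median-of-ratios rescaling 7 had. The median of all tested genes was then 0.00017. Rela and Nfkbib turned negative, and Tnfaip3 was negative under both scalings.

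**Figure D1:**
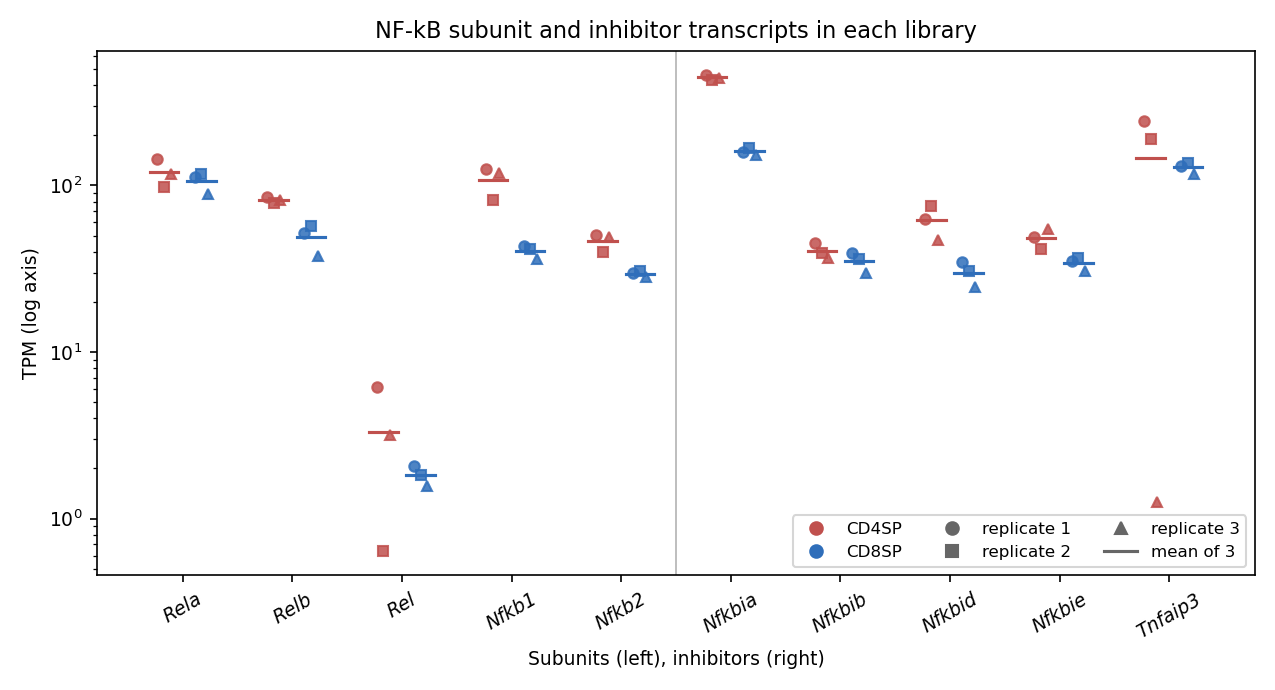
TPM of the 5 subunit genes (left) and 5 inhibitor genes (right) in each library, on a log axis, with colour for the population, symbol shape for the replicate and a bar for the mean of 3 libraries. Nfkbia lies at 429 to 463 TPM in CD4SP and 153 to 169 TPM in CD8SP libraries, Rel lies below all other genes except Tnfaip3 of CD4SP replicate 3, and Tnfaip3 is at 1.26 TPM in that library.

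Among the subunits with activation domains, Rela and Relb differed in their pattern. Rela (chromosome 19, 5637483 to 5648130) encodes p65, the partner of p50 in the classical dimer. CD4SP replicates 1 to 3 held 145, 97.5 and 118 TPM, and CD8SP replicates 1 to 3, in the same order used from here on, held 113, 118 and 89.3 TPM. The populations overlapped, and the log2 fold change was 0.16 (95% confidence interval -0.24 to 0.56, limma adjusted p 0.541), or -0.12 relative to the median of all genes. The sign was not stable to scaling, being -0.15 after median-of-ratios rescaling and -0.051 after quantile normalization.

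Relb (chromosome 7, 19606217 to 19629438) encodes the main partner of p52 in the non-canonical pathway. It was measured at 85.1, 79.0 and 82.3 TPM in the CD4SP libraries, against 51.5, 57.4 and 37.7 TPM in the CD8SP libraries. Every CD4SP library was above every CD8SP library, and the CD4SP values spanned only 1.08-fold. On the log2 scale the difference was 0.76 (SE 0.17, limma adjusted p 0.0167), a 1.69-fold difference that passed the test but not the 2-fold criterion. The adjusted p of Relb rose above 0.05 after median-of-ratios rescaling (log2 fold change 0.46, limma adjusted p 0.0646), without CD4SP replicate 1 (0.0512) and without CD4SP replicate 3 (0.0542).

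Rel (chromosome 11, 23736847 to 23770970) encodes c-Rel, which T cells use after antigen stimulation and in regulatory T cell development. It was the lowest of the 10 genes by mean in both populations, measured at 6.16, 0.635 and 3.18 TPM in the CD4SP libraries, against 2.07, 1.84 and 1.57 TPM in the CD8SP libraries. The CD4SP libraries spread over 9.70-fold, replicate 1 being the highest and replicate 2 the lowest of all 6, whereas the CD8SP libraries spread over 1.32-fold. The log2 fold change was 0.38 (95% confidence interval -0.74 to 1.49, limma adjusted p 0.605). It turned to -0.11 without CD4SP replicate 1 and was 0.96 without CD4SP replicate 2 (limma adjusted p 0.0480).

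Of the precursor genes, Nfkb1 differed most. Nfkb1 (chromosome 3, 135584655 to 135691547) encodes p105, the source of p50. It was measured at 125, 81.4 and 118 TPM in the CD4SP libraries, against 43.3, 41.7 and 36.4 TPM in the CD8SP libraries. The lowest CD4SP library was well above the highest CD8SP library. On the log2 scale the difference was 1.38 (SE 0.18, limma adjusted p 0.00174), a 2.60-fold difference on this scale and 1.09 above the median of all genes on the log2 scale. It was called under all 17 alternatives, with values from 1.07 to 1.57. The annotation of Nfkb1 overlaps Gm43430 on the same strand.

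Nfkb2 (chromosome 19, 46304320 to 46312385) encodes p100, which is both the source of p52 and an inhibitor of Relb. It was measured at 50.6, 39.7 and 48.8 TPM in the CD4SP libraries, against 29.6, 30.7 and 28.0 TPM in the CD8SP libraries. The populations did not overlap, and the 1.55-fold difference passed the test but not the 2-fold criterion (log2 fold change 0.63, SE 0.15, limma adjusted p 0.0214). For Nfkb2 the limma adjusted p rose above 0.05 with the replicate block (0.0546), with CD8SP replicates 1 and 2 averaged (0.0754) and in each fit without a single library (0.0617 to 0.0845) other than that without CD4SP replicate 2. Its log2 fold change was 0.33 after median-of-ratios rescaling (limma adjusted p 0.0731) and 0.34 after quantile normalization (0.0849). Its annotation overlaps Psd and AC114539.1 on the opposite strand. Psd was at 0.495 to 1.61 TPM.

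**Figure D2:**
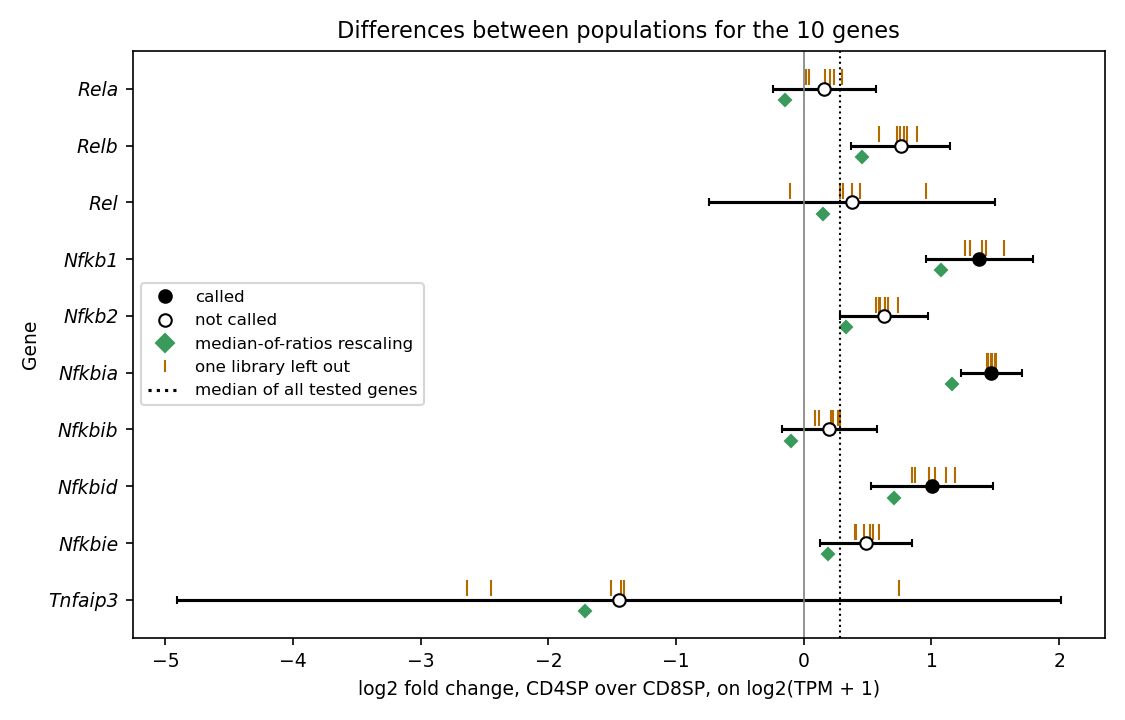
Log2 fold change (CD4SP over CD8SP, on log2(TPM + 1)) of each gene with its 95% confidence interval, filled where called, with the value after median-of-ratios rescaling and the values with a single library left out. Nfkb1, Nfkbia and Nfkbid are called, and Tnfaip3 has the widest interval, -4.91 to 2.01, and moves to 0.75 without CD4SP replicate 3.

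Among the inhibitors, Nfkbia showed the clearest separation. Nfkbia (chromosome 12, 55489410 to 55492647) had the highest mean TPM of the 10 genes in both populations. It was measured at 463, 429 and 445 TPM in the CD4SP libraries, against 160, 169 and 153 TPM in the CD8SP libraries. The spread within a population was 1.08-fold and 1.10-fold, far below the 2.77-fold difference between them on the fitted scale. On the log2 scale the difference was 1.47 (SE 0.10, limma adjusted p 6.98e-05), or 1.19 after subtracting the all-gene median, and the gene was called under all 17 alternatives, with values from 1.16 to 1.51.

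Nfkbid (chromosome 7, 30421732 to 30428746) encodes IκBNS, a nuclear IκB protein that binds p50 and modulates its target genes. It was measured at 62.7, 75.5 and 46.8 TPM in the CD4SP libraries, against 34.6, 30.6 and 24.6 TPM in the CD8SP libraries. The populations did not overlap. On the log2 scale the difference was 1.005 (SE 0.21, limma adjusted p 0.0119), just past 2-fold at 2.01. The call was lost under 7 of 17 alternatives. Without CD4SP replicate 1 the value was 0.98, without CD4SP replicate 2 it was 0.85, and without CD8SP replicate 3 it was 0.87. It was 0.70 after median-of-ratios rescaling (limma adjusted p 0.0766).

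Nfkbie and Nfkbib encode IκBε and IκBβ, cytoplasmic inhibitors like IκBα. Nfkbie (chromosome 17, 45555703 to 45563169) was measured at 49.3, 41.5 and 54.5 TPM in the CD4SP libraries, against 35.4, 36.6 and 30.5 TPM in the CD8SP libraries. The populations did not overlap, but the log2 fold change of 0.49 (95% confidence interval 0.13 to 0.85) had a limma adjusted p of 0.0590. The limma adjusted p was 0.0131 with library weights and 0.0198 without CD4SP replicate 2, and was above 0.05 under all other alternatives. After median-of-ratios rescaling the log2 fold change of Nfkbie was 0.19 (limma adjusted p 0.295), and after quantile normalization it was 0.20 (0.290). Nfkbib (chromosome 7, 28758251 to 28767512) was measured at 45.3, 39.4 and 36.5 TPM in the CD4SP libraries, against 39.3, 36.2 and 29.8 TPM in the CD8SP libraries. Here the populations overlapped, and the log2 fold change was 0.20 (95% confidence interval -0.17 to 0.57, limma adjusted p 0.397), turning to -0.10 after median-of-ratios rescaling and -0.093 after quantile normalization. Nfkbib overlaps Sirt2, at 62.8 to 107 TPM, and Ccer2 on the opposite strand. Its longest transcript shared 316 nt with Ccer2, and no shared stretch of at least 200 nt was found with Sirt2. Strand use was not given in the sources used here, so the value of Nfkbib is uncertain.

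Tnfaip3 (chromosome 10, 19000910 to 19015657) had the least even values of the set. It was at 245 and 190 TPM in CD4SP replicates 1 and 2 but at 1.26 TPM in CD4SP replicate 3, a range of 195-fold. In CD8SP libraries it was at 131, 136 and 118 TPM, a range of 1.16-fold. Replicates 1 and 2 of CD4SP were above every CD8SP library, and replicate 3 was below every one of them. The log2 fold change over all libraries was -1.45 (95% confidence interval -4.91 to 2.01, limma adjusted p 0.515). Without CD4SP replicate 3 the sign reversed, to 0.75, a difference below 2-fold. That library was already known to be the low one, so this fit cannot serve as a test of Tnfaip3.

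Few other genes of that library were as far below its companions. Among 4636 tested genes at 20 TPM or more in both other CD4SP libraries, 4 were at least 16-fold lower in CD4SP replicate 3 than in both others. These were Tnfaip3, Pik3cd, Tmem140 and Vps39. Such genes numbered from 1 to 9 in the other libraries and included Foxp3 in CD4SP replicate 2. Nfkbia, the other feedback inhibitor, was at 445 TPM in CD4SP replicate 3, between its values in the other CD4SP libraries. By Pearson r of log2(TPM + 1) over the 6 libraries, the genes most like Tnfaip3 among 8239 candidates were D930028M14Rik (r = 0.994), Pik3cd (0.985) and Tmem140 (0.983). Pik3cd, a catalytic subunit of PI3-kinase, was measured at 136, 115 and 2.04 TPM in the CD4SP libraries, against 147, 145 and 119 TPM in the CD8SP libraries. The likeness rests on the single low library. Whether 1.26 TPM is a low level or a failed estimate cannot be told apart from TPM values alone, and this holds for every share and ratio that includes Tnfaip3 of that library. By the same measure the genes most like Nfkb1 were Traf3, Mlec and Fes (r from 0.998 to 0.999), those most like Nfkbia were Prdm1, Angptl2 and Tnfrsf4 (each 0.999), and those most like Nfkbid were Nme3, Slc48a1 and Mcts2 (0.991 to 0.996). These correlations share the same difference between populations.

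The order of levels was then compared on the TPM scale, which divides by transcript length. Whether the amplified cDNA recovered long and short transcripts equally was not tested, so the order holds for TPM values only. Rel, the lowest by mean TPM, had the longest annotated transcript of the set (7466 nt), and Nfkbia, the highest, had the shortest (1578 nt). Tnfaip3, which followed Nfkbia by mean TPM in both populations, went the other way with 6199 nt. In CD4SP libraries the mean TPM fell in the order Nfkbia, Tnfaip3, Rela, Nfkb1, Relb, Nfkbid, Nfkbie, Nfkb2, Nfkbib, Rel. In CD8SP libraries it was Nfkbia, Tnfaip3, Rela, Relb, Nfkb1, Nfkbib, Nfkbie, Nfkbid, Nfkb2, Rel. Nfkbia and Rel were separated from their neighbours by non-overlapping ranges in both populations. The other separated neighbours were Relb and Nfkbid in CD4SP libraries, and Rela and Relb in CD8SP libraries, and all remaining neighbours had overlapping ranges.

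Shares within a library do not change when a library is multiplied by a single factor, and they showed a different make-up of the subunit pool. Rela made up 46.9% ± 0.552 (SD, n = 3) of the summed TPM of the 5 subunit genes among CD8SP libraries but 33.2% ± 1.78 (SD, n = 3) among CD4SP libraries. For Nfkb1 the order was the opposite, with 17.9% ± 1.10 (SD, n = 3) among CD8SP and 29.8% ± 2.36 (SD, n = 3) among CD4SP libraries. For both genes the shares of the populations did not overlap. The TPM of Rela itself did overlap (log2 fold change 0.16, limma adjusted p 0.541). Its lower share in CD4SP libraries therefore reflects the larger sum of the 5 subunit genes there. The ratio of Nfkb1 to Rela was 0.861, 0.834 and 1.004 in CD4SP and 0.383, 0.353 and 0.408 in CD8SP libraries. Shares of Relb (23.1% and 21.3%), Nfkb2 (12.9% and 13.1%) and Rel (0.856% and 0.804%) overlapped between populations. No test was made of these shares, since the genes were chosen as a set.

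The inhibitor pool, with Tnfaip3 counted in it, had a larger summed TPM than the subunit pool in every library. Nfkb1 and Nfkb2 were counted only as subunits, although their precursors can act as inhibitors. The ratio of the pools thus compares TPM sums by this grouping and does not measure inhibition. The limit on transcript length given above applies to the size of this ratio and of the ratio of Nfkbia to Rela. The summed TPM of the 5 inhibitor genes was 866, 775 and 584 in CD4SP and 401, 408 and 355 in CD8SP libraries, and that of the 5 subunit genes was 412, 298 and 370 in CD4SP and 240, 250 and 193 in CD8SP libraries. The inhibitor sum was 2.103, 2.60 and 1.58 times the subunit sum in CD4SP libraries and 1.67, 1.64 and 1.84 times in CD8SP libraries, so this ratio overlapped. The lowest of these 6 ratios was that of CD4SP replicate 3, the library with little Tnfaip3. Nfkbia alone was 3.19, 4.40 and 3.78 times Rela in CD4SP and 1.41, 1.43 and 1.71 times Rela in CD8SP libraries, without overlap. Nfkbia took 53.5%, 55.3% and 76.2% of the inhibitor pool in CD4SP and 39.9%, 41.3% and 42.9% in CD8SP libraries. Tnfaip3 made up 28.3%, 24.5% and 0.216% of the inhibitor pool in CD4SP and 32.8%, 33.4% and 33.2% in CD8SP libraries. In CD4SP replicates 1 and 2 this share was lower although the TPM of Tnfaip3 was above that of every CD8SP library.

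**Figure D3:**
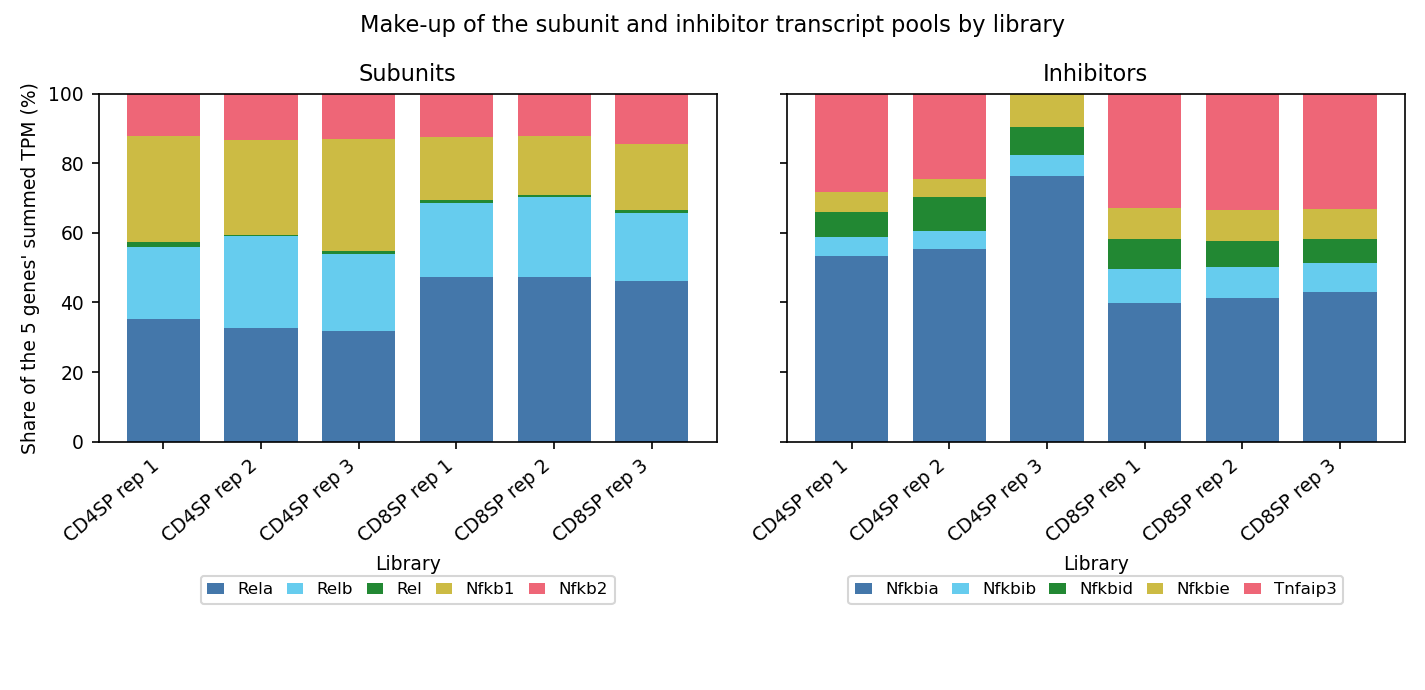
Stacked shares, in percent of summed TPM, of the 5 subunit genes (left) and the 5 inhibitor genes (right) in each library. In CD8SP libraries Rela takes 46.3% to 47.3% and Nfkb1 16.7% to 18.9% of the subunit pool, whereas in CD4SP libraries they take 31.8% to 35.2% and 27.3% to 31.9%, and the Tnfaip3 segment is nearly missing in CD4SP replicate 3.

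The rest of the pathway was described with 6 lists, beside the 7.92% and 1.80% of all genes called in each direction. Counts by the limma adjusted p alone stand beside the 20.8% of all tested genes that reached it in either direction. The kinase list holds the IκB kinases and the kinases above them, with their partners Ikbkg, Tab1, Tab2 and Tab3. None of its 11 tested genes was called, 2 had a limma adjusted p under 0.05 (Ikbke and Tab2), and the median log2 fold change was 0.41. Tab2, an adaptor of the kinase TAK1, was just under 2-fold (0.95, limma adjusted p 0.0181). In this list 1 gene was called with library weights, without CD4SP replicate 2 and without CD8SP replicate 2, and in the scaffold list described next 1 gene was called with library weights and without CD4SP replicate 2. Ikbke, an IKK-related kinase, was its most abundant gene, at 147 to 164 TPM across CD4SP and 87.0 to 98.9 TPM across CD8SP libraries (a log2 difference of 0.77, limma adjusted p 0.00321). Ikbkb, the catalytic kinase of the canonical pathway, was at 61.7 to 83.5 and 62.2 to 74.5 TPM (log2 fold change 0.05, limma adjusted p 0.837). None of the 10 genes of the scaffold between T cell receptor and IκB kinase was called either, with a median of 0.20 and 1 gene, Bcl10, past the test alone (log2 fold change 0.98, limma adjusted p 0.0295). Its most abundant genes, Rbck1 and Sharpin, both of the linear ubiquitin ligase, were at 191 to 283 and 89.1 to 98.0 TPM across all libraries, with log2 fold changes of 0.04 and 0.01.

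Of 8 TRAF adaptors and associated ligases, 2 were called higher in CD4SP and the median log2 fold change was 0.80. The called genes were Tank, a TRAF-binding adaptor (1.35, limma adjusted p 0.0015), and Birc3, which encodes cIAP2 (1.09, limma adjusted p 0.00396). Tank was called under all 17 alternatives, and Birc3 under 13, with 0.79 after median-of-ratios rescaling and no call without CD4SP replicate 1. The most abundant, Traf1 and Birc2, had log2 fold changes of 0.25 and 0.81. The list of other inhibitors had 17 tested genes, of which 3 were called higher in CD4SP and 9 had a limma adjusted p under 0.05, with a median of 0.56. The called genes were Rnf11 (1.13) and Tnip2 (1.08), partners of A20, and Bcl3 (1.10), a nuclear IκB protein. None of these 3 was called after median-of-ratios rescaling, quantile normalization or removal of ribosomal protein genes. Bcl3 was also not called with library weights or without CD8SP replicate 3, and Tnip2 not with library weights or without CD4SP replicate 2. After median-of-ratios rescaling their log2 fold changes were 0.84 for Rnf11, 0.78 for Tnip2 and 0.80 for Bcl3. Otulin, a deubiquitinase listed under its older symbol Fam105b, was the most abundant gene of this list, at 101 to 129 TPM in CD4SP and 137 to 162 TPM in CD8SP libraries, with CD8SP above in every library (log2 fold change -0.38, limma adjusted p 0.0753). Pdlim2, a ligase for Rela, was at 104 to 116 and 75.9 to 78.8 TPM (log2 fold change 0.50, limma adjusted p 0.0183).

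The highest median log2 fold change of the 6 lists was that of TNF receptor family members that signal to NF-κB. Of 8 tested receptors 5 were called higher in CD4SP, with a median log2 fold change of 1.997, and Ltbr was listed at 0 in all libraries. Tnfrsf4 (OX40) was at 1124 to 1201 TPM across CD4SP and 37.0 to 46.4 TPM across CD8SP libraries (a log2 difference of 4.74, limma adjusted p 2.38e-07), and Tnfrsf18 (GITR) at 712 to 835 and 152 to 177 TPM (2.20). The others called were Tnfrsf25 (3.51), Cd40 (3.11) and Tnfrsf1b (1.79). Cd40 was at 0.434 TPM in CD8SP replicate 1 and listed at 0 in the other CD8SP libraries, so its value depends on the pseudocount. These 5 receptors were called under all 17 alternatives. The 3 tested receptors not called were Tnfrsf9 (1.65, limma adjusted p 0.0714), Tnfrsf1a (0.26) and Cd27 (-0.22). Of 18 textbook target genes, 8 were called higher in CD4SP and Ccl5 was called higher in CD8SP, with a median of 0.77. Those higher in CD4SP were Cd83 (3.62), Il2ra (3.37), Lta (1.82), Gadd45b (1.81), Cd74 (1.73), Bcl2a1d (1.27), Irf4 (1.19) and Bcl2a1b (1.09). Bcl2a1b and Bcl2a1d are 99.1% identical over 817 nt, so the split of reads between them is uncertain. Bcl2a1b was not called after median-of-ratios rescaling (0.79), quantile normalization or removal of ribosomal protein genes, and Bcl2a1d not after median-of-ratios rescaling (0.96). Irf4 was called under 9 of 17 alternatives, and was 0.91 after median-of-ratios rescaling (limma adjusted p 0.0604) and not called without CD4SP replicate 1, CD4SP replicate 3, CD8SP replicate 2 or CD8SP replicate 3. Ccl5, a chemokine of cytotoxic T cells, was at 1343 to 1783 TPM in CD4SP and 8618 to 8911 TPM in CD8SP libraries (-2.44, limma adjusted p 1.41e-05). Psmb9, an immunoproteasome subunit, was at 419 to 594 and 297 to 399 TPM (0.55, limma adjusted p 0.0589).

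**Figure D4:**
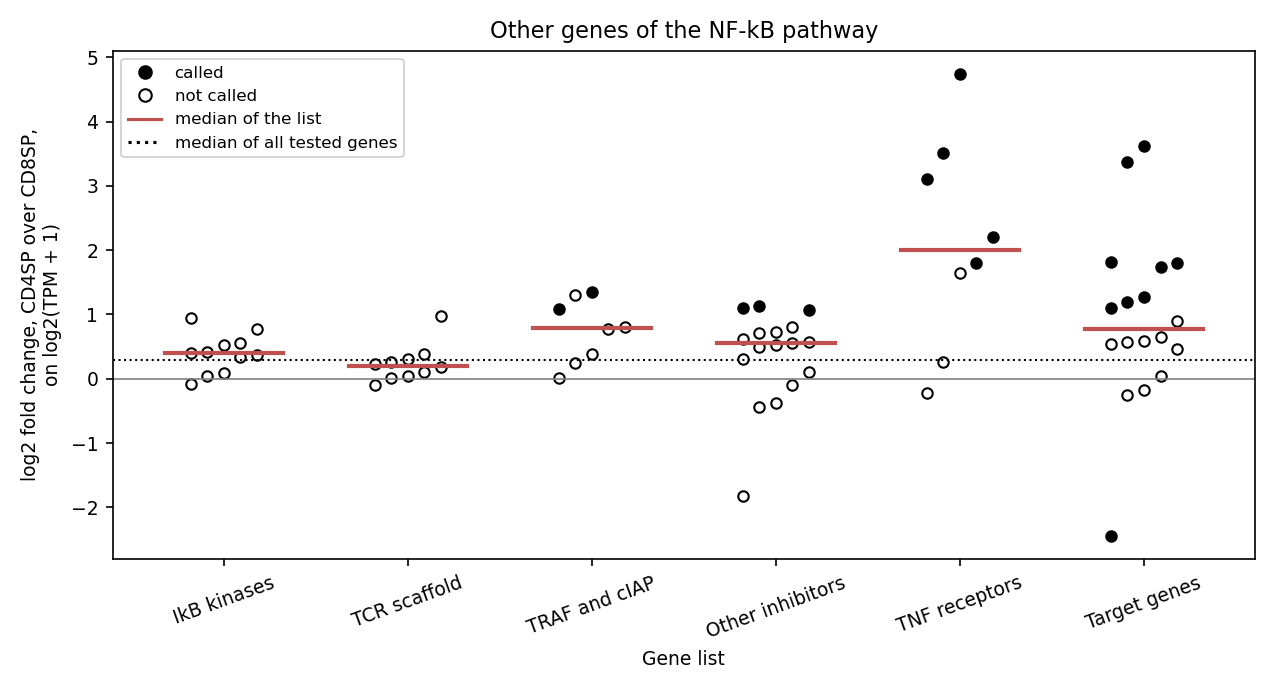
Log2 fold change (CD4SP over CD8SP, on log2(TPM + 1)) of each tested gene of the 6 pathway lists, filled where called, with the median of each list and a dotted line at the 0.28 of all tested genes. In the fit of all 6 libraries the kinase and scaffold lists hold no called gene, whereas 5 of 8 receptors and 9 of 18 target genes are called.

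Other groups of genes moved with the same libraries, and their counts again stand beside the 7.92% of all tested genes called higher in CD4SP. Of 10 regulatory T cell genes 9 were called higher in CD4SP, and their sum was 4292 to 4567 TPM in CD4SP and 601 to 697 TPM in CD8SP libraries. The lists share Il2ra, Tnfrsf4 and Tnfrsf18. Foxp3 was at 142, 6.56 and 167 TPM in CD4SP and 7.48 to 10.05 TPM in CD8SP libraries, so its low CD4SP library was replicate 2 and that of Tnfaip3 was replicate 3. Of 12 immediate-early genes, which T cells switch on within minutes of stimulation or handling, 6 were called higher in CD4SP, and their sum was 1295 to 1387 TPM in CD4SP and 573 to 687 TPM in CD8SP libraries. The part of either group in the levels of Nfkbia, Nfkb1 and Nfkbid was not tested.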

How the data were processed

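Polyadenylated RNA of 6 libraries was amplified as cDNA with a whole-transcriptome kit and sequenced after transposase library preparation. The authors aligned reads with HISAT2 to mm10, used StringTie for quantification and deposited TPM values, per the file headers with 1 column per library. TPM keeps no depth, so depth and counting error are unknown, and an exact 0 or a value near 0 can be a failed estimate. Groups and replicate numbers came from sample titles.

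Genes at 1 TPM or more in at least 3 libraries (10476 of 23420) entered limma 3.58.1 on the log2(TPM + 1) scale, where changes of low genes are understated, in R 4.3.3, with a mean-variance trend, population as the only term and Benjamini-Hochberg adjustment across the whole table tested. A call needed an adjusted p under 0.05 and over 2-fold. The study gives these thresholds for iT cells against natural T cells with another tool, and they were carried over to limma and to this comparison here. The fit was first tested on simulated data. The members and lists were chosen with earlier results of these data known.

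Genes named were the 10 members, the called and the 2 most abundant tested genes of each pathway list, and the 3 genes most correlated with Tnfaip3 and with each called member (mean of at least 5 TPM). The thresholds of 16-fold and 20 TPM for low single libraries, and all other genes named, were chosen after their values were seen. Positions are GENCODE M21 on GRCm38, 1-based. With blastn 2.17.0, 0 of the 10 genes had a copy elsewhere of at least 95% identity over 200 nt. The fit was repeated after quantile normalization, after median-of-ratios rescaling, without 84 ribosomal protein genes, with a pseudocount of 0.1, with a minimum of 5 TPM or none, without the trend, with library weights, with a replicate block, by the adjusted p alone, with CD8SP replicates 1 and 2 averaged, and without each library in turn. Effects on pathway genes named were examined in the same fits. CD8SP replicates 1 and 2 were the most alike of the libraries, with a Pearson r of 0.987 between them. The summed level of the B cell marker list is not reported here.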

Additional observations from a re-analysis of the deposited data

How the results depend on the processing

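The 3 calls among the 10 genes became 5 with the adjusted p alone, which adds Nfkb2 and Relb, and lay between 2 and 3 under all other alternatives, the fits without a single library included. No gene was called higher in CD8SP under any of the 17 alternatives. Rela and Nfkbib changed sign after median-of-ratios rescaling (-0.15 and -0.10) and quantile normalization (-0.051 and -0.093), Rel without CD4SP replicate 1 (-0.11) and Tnfaip3 without CD4SP replicate 3 (0.75). With a library left out, Rel ranged from -0.11 to 0.96 and Tnfaip3 from -2.64 to 0.75. The sign changes of Rela and Nfkbib go with the median of all genes, which was 0.28 and became 0.00017 and -0.015 in these scalings. For Rel and Tnfaip3 fewer libraries are the only difference. Rel was not tested with the filter of 5 TPM. The call of Nfkbid was also lost after quantile normalization (0.71), removal of ribosomal protein genes (0.86) and with library weights (0.77).

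The 19 called genes of the 6 pathway lists became 12 after median-of-ratios rescaling and 33 with the adjusted p alone, and were 17 to 21 with a library left out. Of all tested genes, 9.73% were called with the values as deposited, 7.53% after median-of-ratios rescaling and 20.8% with the adjusted p alone. Differences between populations (CD4SP minus CD8SP) in percentage points of share were, with a library left out, 10.9 to 13.2 for Nfkb1, -14.7 to -12.95 for Rela, 13.045 to 24.4 for Nfkbia and -20.8 to -6.71 for Tnfaip3. The lowest Nfkbia and the smallest Tnfaip3 difference were those without CD4SP replicate 3. The log2 ratio of inhibitor to subunit sums differed by 0.087 to 0.45.

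Same-numbered libraries showed little pairing, with correlations across genes, after subtracting each population's mean, of 0.052, -0.017 and 0.089. With the replicate block the calls among the 10 genes numbered 3 and those of the pathway lists 19, and the adjusted p of Nfkbia was 0.000578, of Nfkb1 0.00306, of Nfkbid 0.00932, of Relb 0.0289 and of Nfkb2 0.0546, so that 4 and not 5 of the 10 genes were under 0.05. Unknown depth limits what can be said of Rel, whose values lay between 0.635 and 6.16 TPM.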
